A study of Homo sapiens with 6 samples.

Results

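Activins are dimers of inhibin beta subunits that signal through paired serine/threonine kinase receptors, and the genes of this axis were read here in MCF10A cells with and without C/EBPbeta-2. The axis was taken as 10 genes by name: the subunit genes INHBA, INHBB and INHA, the antagonists FST and FSTL3, the receptors ACVR1, ACVR1B, ACVR2A and ACVR2B, and the pseudoreceptor BAMBI. Every probe set whose only annotated gene symbol was one of these was kept, which gave 22 of 54613 probe sets and 10 of 19775 genes. No threshold on measured values was applied, but the members were chosen by names that were picked with their log2 differences in these arrays in view. The list thus rests on earlier results of the same contrast, and the values below describe the genes and are not independent evidence that the axis differs.

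MCF10A cells are human breast epithelial cells that grow as a line without forming tumours, and C/EBPbeta-2 is one of the protein isoforms made from CEBPB, a transcription factor gene. The series holds 6 Affymetrix arrays, 3 from MCF10A cells with C/EBPbeta-2 and 3 from MCF10A cells alone, the control. Cells of both groups were grown in the same medium with horse serum, insulin, hydrocortisone, epidermal growth factor and cholera toxin, and no treatment was listed. The labels number biological replicates within each group but do not say whether these were separate cultures, so p-values reflect only the spread between the samples. The sources used here give neither the means of introducing C/EBPbeta-2 nor whether either group was a clone or a pool.

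Inhibin beta subunits pair to form activins, while a beta subunit joined to the inhibin alpha subunit forms inhibin, which opposes activin. Activin binds a type II receptor (ACVR2A or ACVR2B), which then activates the type I receptor ACVR1B, and SMAD2 and SMAD3 carry the signal to the nucleus. Follistatin, the product of FST, binds activin and keeps it from its receptors. In epithelia the activin A subunit gene INHBA is known for its part in wound repair and growth control.

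INHBA and FST, a ligand subunit and its secreted antagonist, both read higher on all 3 C/EBPbeta-2 arrays than on any control array. INHBA was the only gene of the 10 that limma called when each gene was read at its brightest probe set (adjusted p = 0.0245). Of all genes, 0.273% were called, and 0.091% were called as higher with C/EBPbeta-2. FST was not called (adjusted p = 0.181). By log2 difference INHBA was number 5 and FST number 26 of the 19775 genes. The 2 antagonist genes lay on opposite sides of 0, and the receptor genes overlapped between groups except at 1 probe set of ACVR2B.

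INHBA encodes the inhibin beta A subunit, which forms activin A. At probe set 227140_at its log2 intensity was 8.08, 9.51 and 9.80 on the C/EBPbeta-2 arrays, against 4.38, 4.88 and 3.82 on the control arrays. The groups lay 3.21 apart at their nearest points. The log2 difference was 4.77 (SE 0.49, 95% interval 3.59 to 5.96), or 27.3-fold. A second probe set, 210511_s_at, read 7.56, 8.07 and 9.02 on the C/EBPbeta-2 arrays, against 4.38, 5.02 and 4.04 on the control arrays. It also separated the groups, by 2.54, with a difference of 3.74 (SE 0.42), or 13.3-fold. Both probe sets were highest on C/EBPbeta-2 replicate 3 and lowest on control replicate 3.

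The third INHBA probe set, 204926_at, was dim. It read 3.10, 2.91 and 3.06 on the C/EBPbeta-2 arrays, against 2.69, 2.73 and 2.57 on the control arrays, below the median of every array. The groups did not overlap here either, but the difference was 0.36 (SE 0.14). On 2 of the 3 control arrays the brighter INHBA probe sets also lay below the array median, which ran from 4.46 to 4.56. With no detection calls to set a floor, the size of the INHBA folds is uncertain.

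The INHBA call depended on how many features shared the adjustment and on single arrays. Over all 54613 probe sets, limma gave an adjusted p of 0.0554 for 227140_at, 0.0639 for 210511_s_at and 1.00 for 204926_at, and called none of these probe sets. By gene, INHBA was no longer called by limma when 1 of 4 arrays was omitted. Its adjusted p was 0.0760 on omitting C/EBPbeta-2 replicate 2, 0.113 on omitting replicate 3 of that group, 0.101 on omitting control replicate 1 and 0.159 on omitting control replicate 3. Omitting an array also leaves fewer of them in the fit. The difference itself stayed between 4.44 and 5.29 in all 6 of these fits. Because RNA came from whole cultures, fewer cells expressing a gene and less RNA per cell cannot be told apart.

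**Figure D1:**
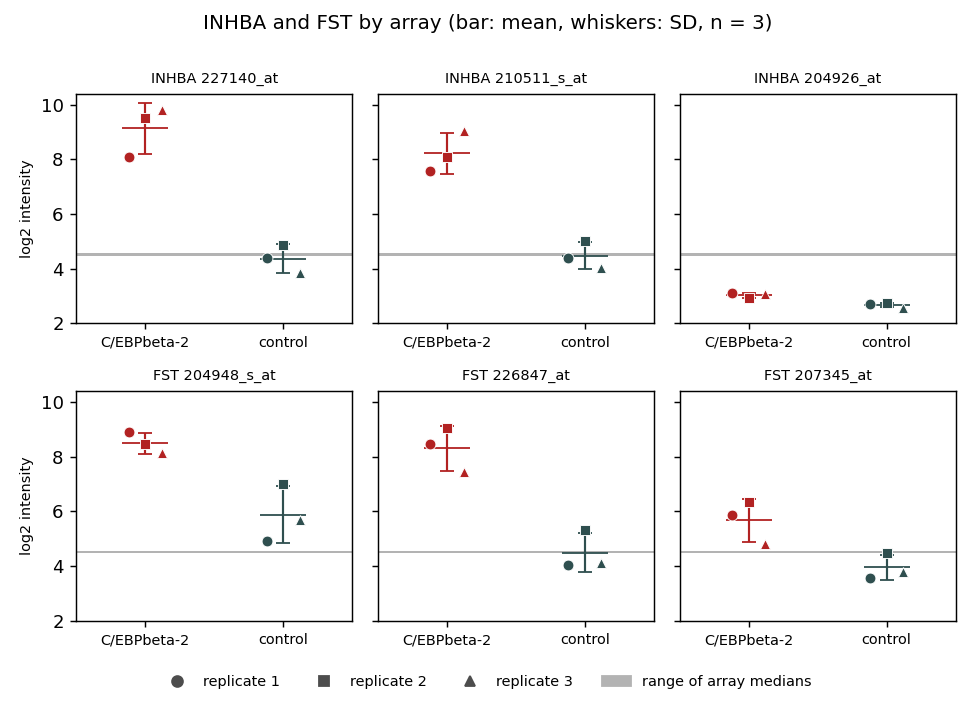
Log2 intensity of the 3 INHBA and 3 FST probe sets on each array, with C/EBPbeta-2 left and control right in each panel; marker shapes give the replicate, the bar the mean and the whiskers the SD (n = 3), and the grey band the range of array medians (4.46 to 4.56). In all 6 panels every C/EBPbeta-2 array lies above every control array, by 3.21 for INHBA 227140_at and by 0.18 for INHBA 204926_at.

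FST encodes follistatin. Its brightest probe set, 204948_s_at, read 8.89, 8.45 and 8.14 on the C/EBPbeta-2 arrays, against 4.93, 6.99 and 5.69 on the control arrays. The difference was 2.62 (SE 0.52, 95% interval 1.39 to 3.86), or 6.16-fold. Control replicate 2 was the highest control array here, and at the other FST probe sets too. Probe set 226847_at read 8.45, 9.06 and 7.43 on the C/EBPbeta-2 arrays, against 4.06, 5.32 and 4.10 on the control arrays. Its difference was the largest of the 3, at 3.82 (SE 0.51, 95% interval 2.60 to 5.04), or 14.1-fold. Probe set 207345_at read 5.87, 6.35 and 4.80 on the C/EBPbeta-2 arrays, against 3.58, 4.47 and 3.80 on the control arrays, a difference of 1.72 (SE 0.43). On the control arrays 226847_at lay below the array median on 2 of 3 and 207345_at on all 3, so the size of these 2 folds is uncertain as well.

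None of the FST probe sets was called over all probe sets, with limma adjusted p-values of 0.336, 0.104 and 0.586 in the order just given. Read by gene, FST was called in 2 of 16 alternative settings, without control replicate 2 (difference 3.18, adjusted p = 0.0307) and with array weights (0.0198), and its adjusted p ran up to 0.615 without control replicate 3. Within the C/EBPbeta-2 group the order of the arrays differed from that of INHBA: replicate 3, the highest array at the 2 brighter INHBA probe sets, was the lowest at all 3 FST probe sets.

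The promoter windows of INHBA and FST are shown because these 2 genes differed most. Each covers 250 bases before to 50 after the RefSeq start in GRCh38.p14, read 5′ to 3′ on the gene's strand. Motifs found by a letter search on both strands are in capitals. The INHBA window lies at chr7:41703041-41703340 on the minus strand and the FST window at chr5:53480379-53480678 on the plus strand.
INHBA: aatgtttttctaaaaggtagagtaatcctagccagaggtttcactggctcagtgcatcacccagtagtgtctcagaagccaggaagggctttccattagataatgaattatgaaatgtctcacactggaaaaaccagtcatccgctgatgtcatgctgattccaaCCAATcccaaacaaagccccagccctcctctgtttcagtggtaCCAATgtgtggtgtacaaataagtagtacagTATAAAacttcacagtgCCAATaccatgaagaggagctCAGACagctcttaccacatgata
FST: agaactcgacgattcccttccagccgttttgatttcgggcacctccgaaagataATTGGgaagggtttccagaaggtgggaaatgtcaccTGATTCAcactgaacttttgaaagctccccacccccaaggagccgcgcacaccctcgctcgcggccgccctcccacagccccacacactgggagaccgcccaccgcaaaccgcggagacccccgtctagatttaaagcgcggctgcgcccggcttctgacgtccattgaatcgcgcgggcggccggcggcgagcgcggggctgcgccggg
The search covered 6 motifs: TTGCNNAA for C/EBP factors, CAGAC for SMAD proteins, TGANTCA for AP-1, TGACGTCA for CREB, CCAAT for the CCAAT box and TATAAA for the TATA box. Over all 35116 promoter windows of this length they were present in 10.5%, 45.3%, 7.71%, 1.85%, 34.6% and 11.5%. The INHBA window held CCAAT at 3 places, TATAAA at 1 and CAGAC at 1. The FST window held TGANTCA at 1 place and CCAAT, on the other strand, at 1. No 2 motifs overlapped in either window. TTGCNNAA and TGACGTCA were in none of the 13 windows that RefSeq gave for the 10 genes. A match is a string of letters, and its absence says only that these letters are not in this window.

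The other subunit genes read low. INHBB encodes the beta B subunit of activin B. Its probe set 205258_at read 3.99, 3.72 and 3.59 on the C/EBPbeta-2 arrays, against 4.06, 3.36 and 3.91 on the control arrays, so the groups overlapped. The 95% interval of its difference ran from -0.56 to 0.54. INHA, the alpha subunit gene of inhibins, read 3.59, 3.24 and 3.58 at 210141_s_at on the C/EBPbeta-2 arrays, against 3.72, 3.84 and 3.60 on the control arrays. Its groups did not overlap, by a margin of 0.015, and its difference was -0.25 (SE 0.17, adjusted p = 1.00). Both probe sets lay below the array median on all 6 arrays, where a change in a low level could be missed.

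FSTL3, a follistatin-like protein that also binds activin, lay on the other side of 0 from FST. Its probe set 203592_s_at read 7.68, 7.25 and 7.97 on the C/EBPbeta-2 arrays, against 8.09, 9.00 and 8.24 on the control arrays. All 3 C/EBPbeta-2 arrays were lower than all 3 control arrays, by 0.12 at the nearest points. The difference was -0.81 (SE 0.30, 95% interval -1.54 to -0.09), and limma did not call it (adjusted p = 1.00 over probe sets and 0.822 over genes). It ranged from -0.99 to -0.53 as single arrays were left out.

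**Figure D2:**
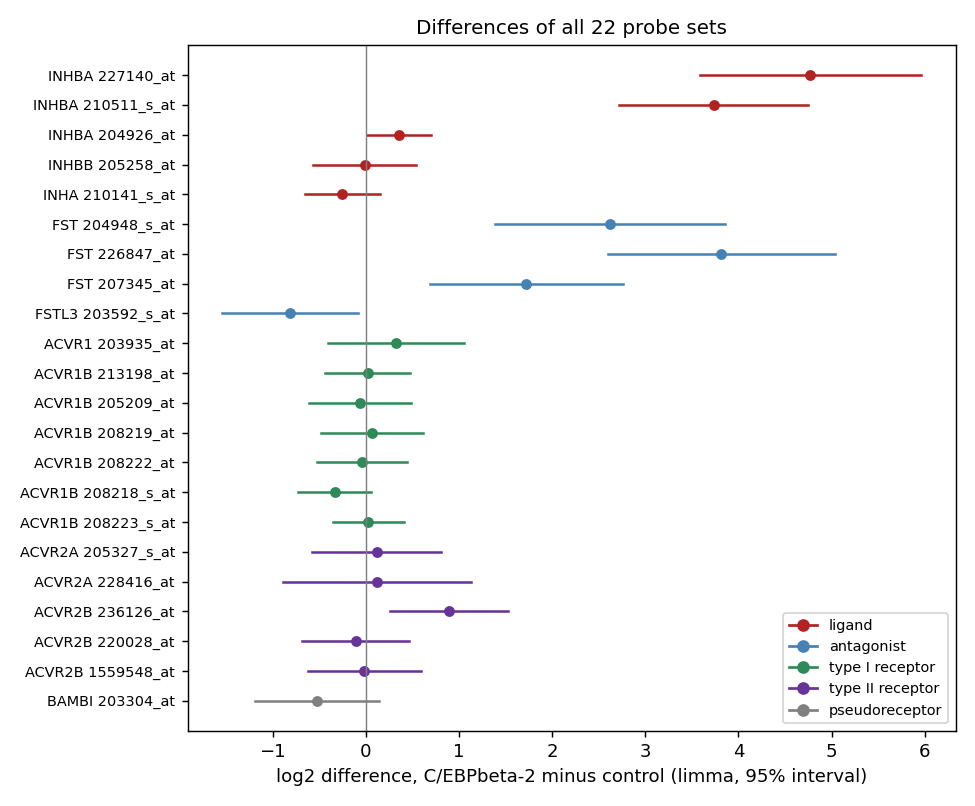
Log2 difference, C/EBPbeta-2 minus control, of each of the 22 probe sets with its 95% interval from limma, coloured by the gene's role and ordered from ligands at the top to the pseudoreceptor at the bottom. The 2 brighter INHBA probe sets (4.77 and 3.74) and the 3 FST probe sets (2.62, 3.82 and 1.72) stand right of 0, while FSTL3 lies left of it at -0.81.

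The type I receptor genes did not separate the groups. ACVR1, which encodes the receptor ALK2 and serves mainly bone morphogenetic proteins, read 7.57, 8.26 and 7.61 at 203935_at on the C/EBPbeta-2 arrays, against 7.94, 7.00 and 7.52 on the control arrays. Its difference was 0.32 (SE 0.30, 95% interval -0.40 to 1.05). ACVR1B encodes ALK4, the main type I receptor of activin. Its brightest probe set, 213198_at, read 7.12, 6.57 and 7.01 on the C/EBPbeta-2 arrays, against 6.80, 6.97 and 6.87 on the control arrays, a difference of 0.02 (95% interval -0.43 to 0.47). The other 5 ACVR1B probe sets differed by -0.34 to 0.06, with overlapping groups at all of them.

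Of the type II receptor genes, ACVR2A overlapped between groups at both probe sets. At 205327_s_at it read 6.05, 7.10 and 6.69 on the C/EBPbeta-2 arrays, against 6.72, 6.30 and 6.47 on the control arrays (difference 0.12, 95% interval -0.57 to 0.80). The difference at 228416_at was 0.12 (95% interval -0.89 to 1.13). The probe sets of ACVR2B, the other type II receptor of activin, disagreed. At 236126_at it read 6.11, 6.24 and 6.91 on the C/EBPbeta-2 arrays, against 5.56, 5.24 and 5.79 on the control arrays. These groups did not overlap, with a difference of 0.89 (SE 0.26, 95% interval 0.26 to 1.52) that limma did not call (adjusted p = 0.805 over probe sets and 0.568 over genes). At 220028_at the difference was -0.11 (95% interval -0.68 to 0.47) and at 1559548_at it was -0.02 (95% interval -0.63 to 0.59), with overlapping groups at both. The part of the transcript that each probe set reads was not used here.

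BAMBI is a membrane protein that resembles a type I receptor, lacks its kinase and dampens signalling by this family. Its probe set 203304_at read 5.08, 5.97 and 5.21 on the C/EBPbeta-2 arrays, against 5.94, 6.19 and 5.70 on the control arrays. C/EBPbeta-2 replicate 2 lay among the control arrays and the other two below them. The difference was -0.53 (SE 0.28, 95% interval -1.19 to 0.14, unadjusted p = 0.103, limma adjusted p = 1.00).

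**Figure D3:**
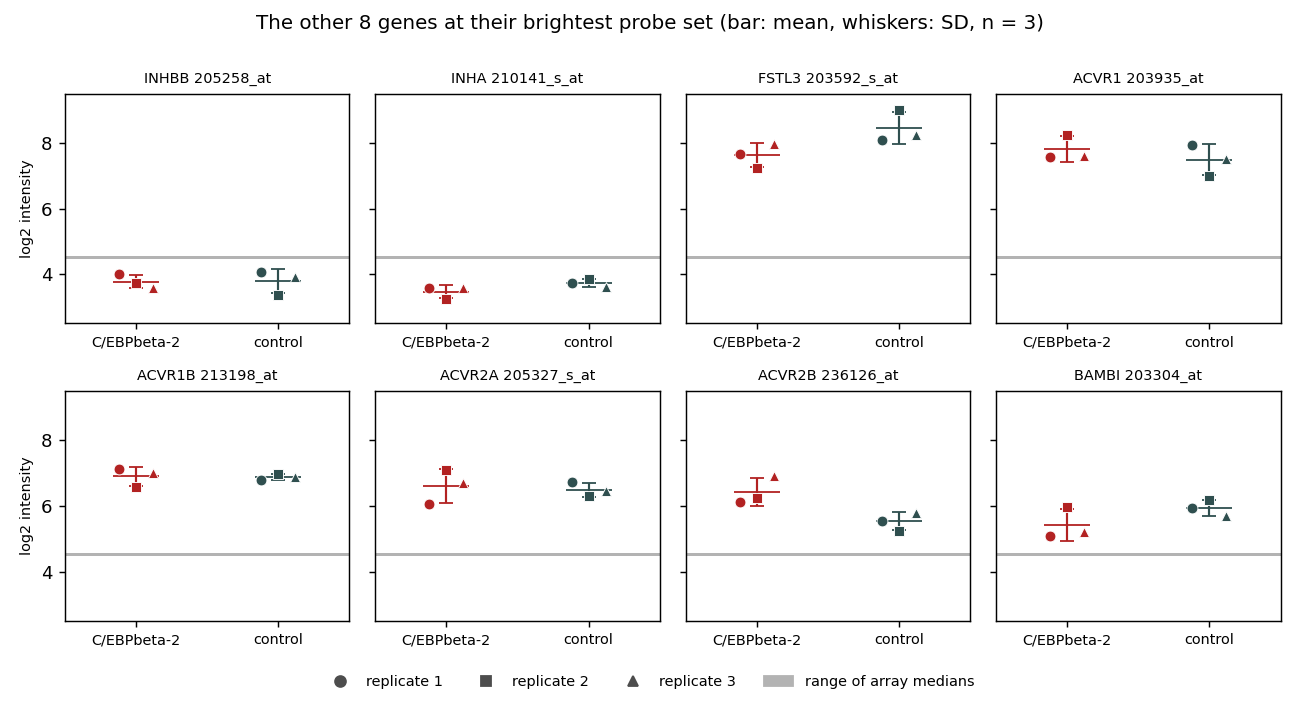
Log2 intensity of the other 8 genes at their brightest probe set on each array, with C/EBPbeta-2 left and control right; marker shapes give the replicate, the bar the mean, the whiskers the SD (n = 3) and the grey band the range of array medians. FSTL3 and ACVR2B separate the groups in opposite directions, with mean differences of -0.81 and 0.89, and INHBB and INHA lie below the band on all 6 arrays.

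Counted together, 0 of the 22 probe sets were called by limma over all probe sets, where 0.0659% of all probe sets were called, and 8 had an unadjusted p under 0.05, as did 3.98% of all probe sets. The groups did not overlap with C/EBPbeta-2 higher at 7 probe sets, all 3 of INHBA, all 3 of FST and 1 of ACVR2B, and with C/EBPbeta-2 lower at 2, those of FSTL3 and INHA. Among all probe sets 3.87% did not overlap with C/EBPbeta-2 higher and 3.75% with it lower. By gene, 3 of 10 did not overlap with C/EBPbeta-2 higher and 2 with it lower, where the shares of all genes were 4.62% and 4.01%. The median log2 difference was 0.07 for the 10 genes and 0.01 for all genes. Nothing further is read from these counts, since the genes were chosen with this contrast known.

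The arrays differed in ways that cross the groups. The control probe sets for poly-A spike-in RNA had a mean log2 intensity of 3.65 for C/EBPbeta-2 replicate 2 and of 3.81 for control replicate 1, while 6.33 to 7.00 was measured for the remaining 4. Within the 2 arrays of low spike level the difference of INHBA 227140_at was 5.13, and within the 4 arrays of high level it was 4.59. For FST 226847_at it was 5.00 at the low level and 3.23 at the high one, and for FST 204948_s_at 3.52 and 2.18. BAMBI differed by 0.03 at the low level and by -0.80 at the high one, while FSTL3 differed by -0.84 and -0.80. CEBPB itself averaged 10.72 on the C/EBPbeta-2 arrays and 11.34 on the control arrays (212501_at; difference -0.62, adjusted p = 1.00). Where its probes lie relative to any introduced sequence was not used here, so this gene gives no check of the labels.

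The epithelial keratin KRT5 read 12.38 to 12.69 on the C/EBPbeta-2 arrays and 12.44 to 12.93 on the control arrays. KRT14, a basal keratin (-3.00, adjusted p = 0.0300) and E-cadherin, CDH1 (-2.14, adjusted p = 0.0245), were lower with C/EBPbeta-2. Limma did not call KRT14 in 6 of 16 alternative settings and CDH1 in 7 of 15. With single arrays left out, their limma adjusted p ran up to 0.199 and 0.159. EPCAM (0.03), KRT18 (0.09), EGFR (0.05) and ITGB4 (-0.51) overlapped between groups and were not called (adjusted p = 1.00 each), and KRT17 and TP63 were not analysed here. Of 11 markers of fibroblasts, leukocytes and endothelium 10 were measured, and their summed intensity was 346 to 417 on the C/EBPbeta-2 arrays and 311 to 356 on the control arrays. None was at 0. LUM, PTPRC, CDH5 and VWF lay below the median of all 6 arrays, and COL1A1, PECAM1 and CD14 lay above it on all 6. COL3A1, PDGFRB and CD3E lay below it on some arrays and above it on others. CD14 was the only one of the 10 whose groups did not overlap (difference 0.92, adjusted p = 0.266), and the part of these markers in the INHBA and FST values was not tested.

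Of 24 other genes of the activin pathway (ligands, coreceptors, convertases, SMAD proteins and their regulators), 22 were measured. Limma called 0 of them, and 3 had an unadjusted p under 0.05, as did 5.17% of all genes. Their median difference was -0.01, against 0.01 for all genes, and the groups did not overlap for 2 with C/EBPbeta-2 higher and 1 with it lower (4.62% and 4.01% of all genes). The largest difference was in TGFBR3, betaglycan, a coreceptor through which inhibin opposes activin (226625_at). It read 7.02, 7.60 and 6.50 on the C/EBPbeta-2 arrays, against 9.60, 7.38 and 8.94 on the control arrays (difference -1.60, SE 0.58, adjusted p = 0.768). The groups overlapped through control replicate 2.

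SMAD7, the inhibitory SMAD that signalling by this family induces and that closes its feedback loop, separated the groups by 1.05 at their nearest points. Its probe set 204790_at read 6.49, 6.63 and 6.48 on the C/EBPbeta-2 arrays, against 5.35, 5.16 and 5.43 on the control arrays (difference 1.22, SE 0.16, adjusted p = 0.0517). It was called in 4 of 16 alternative settings, with adjusted p from 0.0152 to 0.427. PCSK5, a proprotein convertase, read 4.78, 3.95 and 4.02 at 205559_s_at on the C/EBPbeta-2 arrays, against 3.06, 3.30 and 2.95 on the control arrays (difference 1.15, adjusted p = 0.283). Apart from C/EBPbeta-2 replicate 1, these values lay below the lowest array median, 4.46. With probe sets ending in _x_at or _s_at left out, the PCSK5 difference was 0.70. The signal carriers SMAD2 (-0.26), SMAD3 (-0.09) and SMAD4 (-0.15) were not called, each with an adjusted p of 1.00 and overlapping groups.

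Among 12 genes that SMAD2 and SMAD3 are known to induce in many cell types, 11 were measured. Limma called 0 of these, and 2 had an unadjusted p under 0.05 (5.17% of all genes). The list holds SMAD7, which is also counted above. The list's median difference was 0.44, against 0.01 for all genes, with 9 of the 11 above 0, where 51.9% of all genes were above 0. The list was chosen with earlier results of these data known. These values therefore describe its genes and do not test signalling by SMAD2 and SMAD3. The groups did not overlap for 2 with C/EBPbeta-2 higher, SMAD7 and CCN2, and for 1 with it lower, LTBP2 (4.62% and 4.01% of all genes). CCN2, a matricellular protein, read 8.46, 9.16 and 7.76 on the C/EBPbeta-2 arrays, against 6.67, 7.58 and 4.05 on the control arrays (209101_at; difference 2.36, SE 0.88, adjusted p = 0.810). Without control replicate 3, its lowest array, the difference was 1.33. LTBP2, a latent TGF-beta binding protein family member of the matrix, differed by -0.88 (adjusted p = 0.989), and by -0.46 without control replicate 2.

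**Figure D4:**
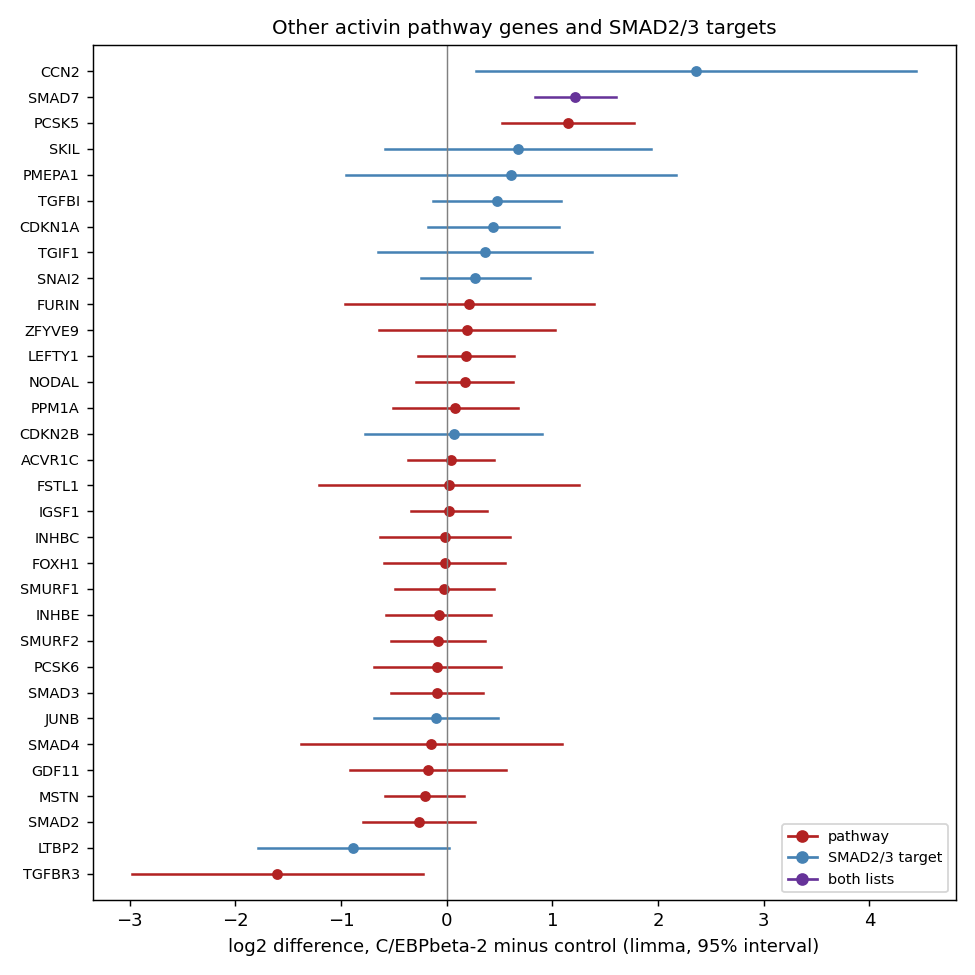
Log2 difference, C/EBPbeta-2 minus control, with its 95% interval from limma for the 22 other activin pathway genes and the 11 SMAD2/3 target genes measured, each at its brightest probe set and ordered by difference; SMAD7 is in both lists. CCN2 (2.36), SMAD7 (1.22) and PCSK5 (1.15) stand at the top and TGFBR3 (-1.60) at the bottom, and most intervals include 0.

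The genes whose levels followed INHBA most closely over the 6 arrays were EREG, an EGF family ligand (Pearson's r = 0.988), the pseudogene SFTA1P (0.981) and PPP2R2C, a regulatory subunit of protein phosphatase 2A (0.980). They were taken from 4651 genes with a mean log2 intensity of at least 6 and a range of at least 1. EREG averaged 7.72 on the C/EBPbeta-2 arrays and 5.56 on the control arrays (adjusted p = 0.0245). SFTA1P and PPP2R2C were not called (limma adjusted p = 0.0840 each). Because these genes were picked for following INHBA, their differences are not separate evidence. Those closest to FST were COL16A1, a collagen chain (0.987), SH3BP4 (0.978) and IGFLR1 (0.970). Those closest to BAMBI were JPH1 (0.953), ERVMER34-1 (0.945) and RGS20 (0.936). Limma called none of the genes closest to FST or BAMBI. Each r rests on 6 arrays in 2 groups, so it holds both the difference between groups and the spread within them.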

How the data were processed

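The file deposited by the authors holds an intensity for each probe set on each array. RMA, a method that summarises the probes of each probe set, is named by the submitters' processing notes, with no version stated. The intensities run from 4.17 to 17825 on a linear scale, a step after RMA that the sources do not describe. Here log2 was taken, with no pseudocount or renormalization. The 62 control probe sets were set aside, leaving 54613, of which 41091 had 1 gene symbol, 1801 several and 11721 none; those with several were not named. By gene ID, 41037 of the 41091 matched RefSeq and 0 symbols changed. For each gene the brightest probe set, by its mean on the 6 arrays, stood for the gene.

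Differences of C/EBPbeta-2 minus control were estimated in limma 3.58.1 (R 4.3.3, functions lmFit and eBayes) from the 6 arrays without covariates. Features were called two-sided at a Benjamini-Hochberg adjusted p under 0.05, over probe sets and, in a second fit, over genes. All p-values come from limma, and SEs and intervals of the members are from the probe set fit, those of other genes from the gene fit. Scripts were tested on simulated data. The number of arrays limits precision.

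The genes and lists were chosen with earlier results of these data known. Named were all members, CEBPB, from each list every called gene and the 3 with the largest difference, and for INHBA, FST and BAMBI the 3 genes with the highest r; markers and SMAD2 to SMAD4 are given as context. Promoter windows and gene names are from RefSeq (GRCh38.p14). Python 3.11.15 with pandas 2.3.3 and matplotlib 3.10.9 was used. Alternatives left out each array, added the replicate number as a block or a term for the spike-in level, and changed the normalization, filter, prior variance, array weights, choice of probe sets and threshold. Pooling variances over all probe sets was added after seeing the data.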

Additional observations from a re-analysis of the deposited data

How the results depend on the processing

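No probe set of INHBA or FST changed sign in any fit or spike-in level. Omitting, weighting or splitting arrays could not change it, as their groups did not overlap. The replicate block, filter and prior return the main difference. Of the 322 values over all 22 probe sets, these copies included, 41 changed sign. They were at 11 uncalled probe sets of other genes with differences of at most 0.53 in size. The count of called probe sets of the axis, 0 of 22, became 1 after quantile normalization again (INHBA 227140_at), 3 without dim probe sets (mean log2 under 4.52, which left 14 of the 22), 3 with a trended and robust prior, 3 with array weights (each time INHBA 227140_at and 210511_s_at and FST 226847_at), and 2 at an adjusted p under 0.1. It ranged from 0 to 1 as single arrays were left out. The count of called genes of the axis, 1 of 10, ranged from 0 to 2 as single arrays were left out and was 2 with array weights. It was 0 with the replicate number as a block, where INHBA had an adjusted p of 0.178 (range over all 16 alternatives 0.00317 to 0.178). Deviations of same-numbered arrays from their group means correlated at -0.45, -0.55 and 0.42 for replicates 1, 2 and 3. The last was the highest of either replicate 3 array with the other group. Across numbers, C/EBPbeta-2 replicate 2 correlated at 0.66 with control replicate 1 and C/EBPbeta-2 replicate 1 at 0.64 with control replicate 2. Within these 2 pairs, in this order, array quality lay close only in part. The 18S ribosomal RNA probe sets averaged 5.62 and 8.05 (log2), not close, and 12.19 and 12.17. ACTB 3' minus 5' was 1.32 and 1.48, then 0.18 and -0.04. For replicate 3, C/EBPbeta-2 then control, the values were 10.09 and 10.33 for 18S, 0.64 and 0.44 for ACTB. The labels give no pairs across the groups, and no fit used the 2 pairs across numbers. With that block limma called 0 of all genes, against 54 without it, and 0 of all probe sets, against 36, with 763 genes and 1701 probe sets at an unadjusted p under 0.05. For the pathway genes and the SMAD2/3 targets the count of 0 became 1, SMAD7, after quantile normalization again, with array weights, with probe sets averaged by gene, with variances pooled over all probe sets and at an adjusted p under 0.1. Calls over all genes were 8 to 75 as single arrays were left out and 214 with array weights. Over all probe sets they were 5 to 37 and 122 in turn, 78 without dim probe sets and 67 with a trended and robust prior. The cause was not tested. Some of these fits held fewer arrays or features. Low signal limits INHBB, INHA and the dimmest probe sets of INHBA, ACVR1B and ACVR2B, and the control levels behind the INHBA and FST folds: 6 of 22 probe sets lay below every array median.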
